A study of Homo sapiens with 4 samples.

Results

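The genes described here are 10 that record or restrain signalling through ERK, the last kinase of the RAS, RAF and MEK cascade. They are the dual-specificity phosphatases DUSP1, DUSP4, DUSP5, DUSP6 and DUSP10, the Sprouty genes SPRY1, SPRY2 and SPRY4, the Sprouty-related SPRED1, and the ETS transcription factor ETV4. They were chosen by name, with earlier results of these data known, as were the gene lists set beside them below. Every probe set whose only gene symbol in the platform annotation was one of these names was taken, which gave 21 probe sets of 41091 with a single symbol and of 54675 on the array, for 10 of 19775 genes. The cells were untreated HCT116 cells, a line of human colon carcinoma, kept flat on plastic as monolayers or allowed to form multicellular spheroids (MCS), small balls that grow in wells to which cells cannot attach. Each group had 2 arrays of separately grown cultures, named here monolayer 1 and 2 and spheroid 1 and 2, and HCT116 was the only line, so the 4 arrays speak for 1 line in 2 growth forms. RNA was taken from whole cultures. A change in the share of cells that express a gene and a change in RNA per cell therefore cannot be told apart.

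Growth factor receptors switch on RAS, and the signal passes through RAF and MEK to ERK, which enters the nucleus and drives a set of early genes. Some of those genes encode brakes: DUSP proteins remove the activating phosphates from ERK or its relatives JNK and p38, while Sprouty and SPRED proteins act between the receptor and RAF. Their transcripts are commonly read as a record of ERK output because ERK induces them. In colon epithelium this cascade is a main driver of proliferation, and it is active in many carcinomas.

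Signals are the MAS5 values deposited for each probe set, on a linear scale with no fixed unit, and a gene was tested where its mean over the 4 arrays was above 300. A difference is the spheroid mean minus the monolayer mean of log2(signal + 32), with its standard error (SE). Adding 32 understates the change of weak genes. A gene is called higher or lower in MCS where its p-value from limma, adjusted by the Benjamini-Hochberg method over all 8721 genes tested, was under 0.05. With 2 cultures a group, these p-values rest on a spread that limma shares across genes. The 4 arrays had the same trimmed mean, and 27.5% to 30.0% of probe sets were above 300 on each. Across genes the log2 values correlated at 0.984 between the monolayer arrays, 0.979 between the spheroid arrays and 0.889 to 0.902 between groups. Of 8 colon epithelial markers, EPCAM, CDH1, KRT8, KRT18 and KRT19 were above 300, while VIL1, CDX2 and LGALS4 were below it. The summed epithelial signal was 80577 to 88393 in monolayers and 91419 to 95264 in MCS. Of 11 markers of other cell types 1 was above 300, COL1A1, at 869 and 658 in monolayers and 2222 and 2659 in MCS. The summed signal of those markers was 1030 to 1467 in monolayers and 2662 to 2967 in MCS, which COL1A1 alone raised: the other 10 summed to 599 and 372 in monolayers and 441 and 308 in MCS. The part of COL1A1 in the results below was not tested. The 24 probe sets of the added Bacillus control RNAs were 1.82-fold brighter in MCS, by 2.21-fold on spheroid 1 and by 1.5-fold on spheroid 2, while the hybridization controls differed 1.09-fold.

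Promoters are shown for 4 of the genes, chosen to set the gene with the largest difference (DUSP1) and 2 with smaller ones (DUSP6 and SPRY4) beside SPRED1, which was not called. RefSeq windows were kept for 7 of the 10 genes, with none for DUSP4, DUSP5 or ETV4. The search left a whole chromosome out for the 10 genes, though not for the windows of all genes. A missing window therefore does not mean that the gene has none. Each window holds the 250 bases before a transcription start, read 5′ to 3′ on the gene's strand in GRCh38.p14, and positions are counted back from the start, so that the last base is -1. Capitals mark matches to letters searched on both strands: the cyclic AMP response element (CRE) core TGACG, the full CRE TGACGTCA, the E-box CACGTG and the ETS core GGAAG, whose match on the opposite strand reads CTTCC, with TATAAA searched on the given strand only. The windows are DUSP1 at chr5:172771196-172771445 (minus strand), DUSP6 at chr12:89352502-89352751 (minus strand), SPRY4 at chr5:142324248-142324497 (minus strand) and SPRED1 at chr15:38252586-38252835 (plus strand).
DUSP1: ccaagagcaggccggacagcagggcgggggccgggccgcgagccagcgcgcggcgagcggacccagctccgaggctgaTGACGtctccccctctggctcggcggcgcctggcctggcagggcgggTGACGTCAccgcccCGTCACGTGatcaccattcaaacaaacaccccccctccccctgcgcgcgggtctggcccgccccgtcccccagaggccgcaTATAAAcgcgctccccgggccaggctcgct
DUSP6: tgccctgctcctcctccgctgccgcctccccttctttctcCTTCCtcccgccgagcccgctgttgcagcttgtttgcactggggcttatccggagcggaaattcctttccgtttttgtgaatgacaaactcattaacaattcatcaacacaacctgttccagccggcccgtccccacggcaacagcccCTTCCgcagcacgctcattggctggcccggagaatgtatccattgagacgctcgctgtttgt
SPRY4: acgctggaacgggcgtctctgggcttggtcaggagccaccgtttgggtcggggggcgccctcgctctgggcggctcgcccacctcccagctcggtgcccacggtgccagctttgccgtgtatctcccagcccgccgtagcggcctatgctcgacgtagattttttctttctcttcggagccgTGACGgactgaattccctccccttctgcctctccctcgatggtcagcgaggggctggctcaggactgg
SPRED1: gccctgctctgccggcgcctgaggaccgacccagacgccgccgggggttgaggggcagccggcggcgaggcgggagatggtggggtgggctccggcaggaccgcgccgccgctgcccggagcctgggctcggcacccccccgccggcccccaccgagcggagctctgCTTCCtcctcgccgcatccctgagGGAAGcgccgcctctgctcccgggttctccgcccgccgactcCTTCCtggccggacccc

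The DUSP1 window held a full CRE at -125 to -118, in which 2 CRE cores overlap, further CRE cores at -172 to -168 and -111 to -107, an E-box at -108 to -103 that overlaps the last of these, and TATAAA at -30 to -25. Of 35116 RefSeq windows of the same length, 1.65% held the full CRE, 6.34% the E-box and 6.8% TATAAA. The SPRY4 window held 1 CRE core, at -68 to -64, and the core was present in 21.2% of all windows. DUSP6 had the ETS core at -210 to -206 and -62 to -58, and SPRED1 had it at -83 to -79, -59 to -55 and -17 to -13. That core is common, with a match in 65.1% of all windows. Over the 11 windows of the 7 genes, the CRE core was found in 3 genes and the ETS core in 5. The CArG box read by serum response factor was found in 0, and in 1.16% of all windows. A gene counts here where any of its windows held the match, so these counts are not on the scale of the shares of single windows. These matches describe the letters of the windows and are not measured binding sites.

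Most of the 10 genes were higher in MCS. Of the 10 genes 8 passed the signal filter, and 6 of these were called higher (DUSP1, DUSP4, DUSP5, DUSP6, SPRY2 and SPRY4), 1 was called lower (ETV4) and 1 was not called (SPRED1). Among all genes tested 19.0% were called higher and 20.6% lower. The median difference of the 8 genes was 1.10 on the log2 scale, beside -0.03 for all genes tested. Because the genes were chosen with earlier results of these data known, these counts and medians are description only. Both spheroid arrays were above both monolayer arrays in 7 of the 8, as they were in 33.4% of all genes, and both were below in the remaining gene, ETV4. ETV4 is also the gene that passed the filter only through the group in which it was brighter. DUSP10 and SPRY1 lay below the filter and are described with their own values.

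**Figure D1:**
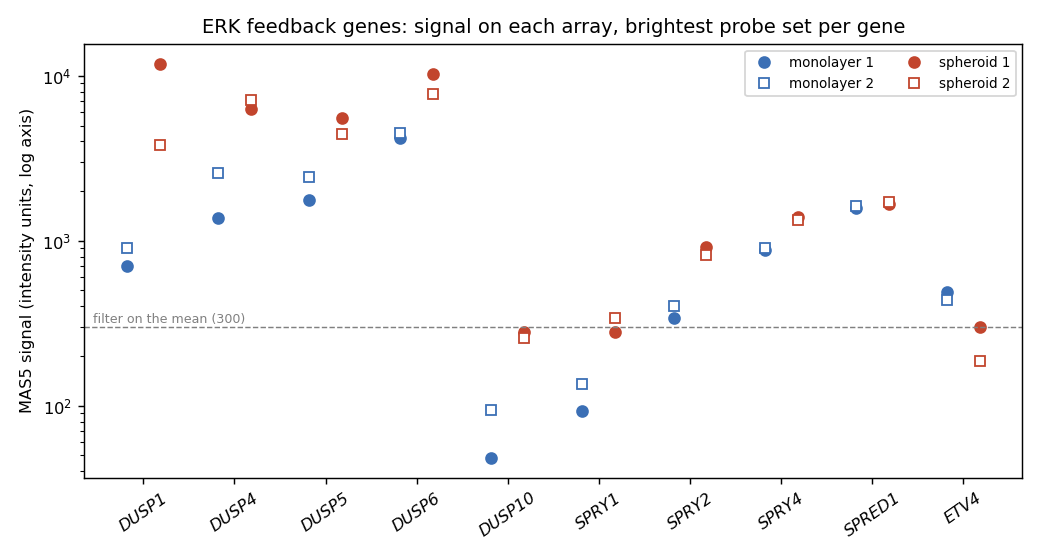
MAS5 signal of the 10 genes on each of the 4 arrays, on a log axis, with 1 probe set per gene (the brightest). Each point is 1 array, and the dashed line is the filter of 300 on a gene's mean. The spheroid points lie above the monolayer points in every gene but ETV4, where they lie below, and the 2 spheroid points stand widest apart in DUSP1 (11858 and 3819).

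The largest differences among the 8 genes were those of DUSP1 and DUSP4, which encode nuclear phosphatases. DUSP1, an immediate early gene whose product acts on JNK, p38 and ERK, had signals of 704 and 906 in monolayers and 11858 and 3819 in MCS. Both spheroid arrays were far above both monolayer arrays, and spheroid 1 was 3.11-fold above spheroid 2. The ratio of group means was 9.74 and the log2 difference 3.03 ± 0.37 (SE, n = 2 per group, adjusted p = 6.62e-05), which placed DUSP1 at rank 50 of 8721 in the upward direction. Without spheroid 1 the difference was 2.21 and without spheroid 2 it was 3.84, so the size, though not the call, depends on which spheroid culture is counted. The other DUSP1 probe sets were weak. One of them stood at 5.21 and 6.31 in monolayers and 341 and 60.1 in MCS. The other read 196 and 143 in monolayers and 167 and 95.4 in MCS, and there the groups overlap.

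DUSP4, a nuclear phosphatase of ERK and JNK, had signals of 1375 and 2570 in monolayers and 6283 and 7101 in MCS. The monolayer cultures differed 1.87-fold from each other, yet both stayed well below the spheroid cultures. The difference was 1.81 ± 0.23 (SE, n = 2 per group, adjusted p = 9.17e-05), with 1.37 without monolayer 1 and 2.25 without monolayer 2. DUSP4 had 2 further probe sets above the filter. Both were higher in MCS too, by 1.47 ± 0.26 (adjusted p = 0.00197) and 1.45 ± 0.22 (adjusted p = 9.69e-04).

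DUSP5, a nuclear phosphatase with a strong preference for ERK, rose from 1774 and 2426 in monolayers to 5545 and 4428 in MCS. Its log2 difference of 1.24 ± 0.18 (SE, n = 2 per group, adjusted p = 2.41e-04) stayed between 1.02 and 1.47 when any 1 array was left out. DUSP6, the cytoplasmic counterpart that also acts on ERK and holds it in the cytoplasm, was bright in both growth forms, at 4198 and 4532 in monolayers and 10217 and 7764 in MCS. The groups did not overlap, and the difference was 1.02 ± 0.15 (adjusted p = 2.67e-04). The other DUSP6 probe sets were called higher as well, by 0.81 ± 0.18 (adjusted p = 0.00597) and 0.93 ± 0.26 (adjusted p = 0.0188). DUSP1, DUSP5 and DUSP6 were all brighter on spheroid 1 than on spheroid 2, and DUSP4 was brighter on spheroid 2. Within each array, a measure that needs no scaling between arrays, the log2 ratio of DUSP1 to DUSP6 was -2.58 and -2.32 in monolayers and 0.21 and -1.02 in MCS. It rose by 2.05, and by 1.43 without spheroid 1.

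DUSP10, whose product prefers JNK and p38 over ERK, was weak. Its signals were 48.1 and 94.2 in monolayers and 281 and 258 in MCS, so that it fell below the filter although the groups did not overlap. Its group means were 71.2 and 269, so it passes a filter of 100 only through the spheroid arrays, in which it was brighter. With the filter lowered to a mean of 100, under which 16.8% of 11297 genes were called higher, its difference was 1.58 ± 0.37 (adjusted p = 0.00578), and with no filter it was still called (adjusted p = 0.0393). At the lower filter the call was lost without spheroid 1 (adjusted p = 0.0671). Its second probe set read 42.5 and 85.1 in monolayers and 140 and 178 in MCS.

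The Sprouty genes encode inhibitors that receptors switch on and that block the path from receptor to RAF. SPRY2 had signals of 339 and 401 in monolayers and 923 and 822 in MCS. The 4 values fell into 2 narrow pairs, and the difference was 1.17 ± 0.22 (SE, n = 2 per group, adjusted p = 0.0013), with a range of 1.06 to 1.28 when any 1 array was left out. SPRY4 showed a smaller difference, from 880 and 909 in monolayers to 1386 and 1329 in MCS. The monolayer values differed 1.03-fold and the spheroid values 1.04-fold, and the difference was 0.58 ± 0.18 (adjusted p = 0.0225). SPRY4 kept its size when any 1 array was left out (0.55 to 0.61), but its call was lost each time, with adjusted p from 0.0549 without spheroid 2 to 0.0942 without monolayer 1, and values of 0.0752 without monolayer 2 and 0.0787 without spheroid 1.

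SPRY1 lay below the filter, at 93.2 and 136 in monolayers and 279 and 342 in MCS for its brighter probe set. At a filter of 100 the difference was 1.23 ± 0.32 (adjusted p = 0.0111). The call was lost with no filter (adjusted p = 0.0633), and at the filter of 100 it was lost without spheroid 2 (adjusted p = 0.103). The other SPRY1 probe set gave 153 and 92.8 in monolayers and 95.2 and 128 in MCS, which overlap. The 2 probe sets of SPRY1 therefore disagree.

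SPRED1, which brings the RAS inhibitor neurofibromin to the membrane, stood at 1572 and 1635 in monolayers and 1668 and 1713 in MCS. All 4 arrays were within a narrow band. The difference of 0.07 ± 0.17 was not called (adjusted p = 0.751), and its 95% interval ran from -0.29 to 0.43. That interval overlaps the one of SPRY4 (0.19 to 0.98). A second probe set, at 257 and 226 in monolayers and 360 and 430 in MCS, gave 0.64 ± 0.26 and was not called either (adjusted p = 0.0784). Its group means were 242 and 395, so it passed the filter only through the spheroid arrays, in which it was brighter. Its spheroid arrays were above its monolayer arrays, so the 2 SPRED1 probe sets give different sizes. Within each array, the log2 ratio of SPRY4 to SPRED1 was -0.84 and -0.85 in monolayers and -0.27 and -0.37 in MCS, a rise of 0.53 that 1 scaling factor per array cannot alter. The same ratio for SPRY2 to SPRED1 rose by 1.16. Both ratios use the brighter SPRED1 probe set alone, and both rises depend on that choice. They were not computed against the second probe set, whose own difference of 0.64 was above the 0.58 of SPRY4.

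ETV4, an ETS factor of the PEA3 group that ERK induces and activates, went the other way. Its signals were 490 and 438 in monolayers and 300 and 186 in MCS, and the difference was -0.88 ± 0.28 (SE, n = 2 per group, adjusted p = 0.0241). Both spheroid arrays were lower, but the call rests on few arrays: it was lost without monolayer 1 (-0.81, adjusted p = 0.082), without spheroid 2 (-0.58, adjusted p = 0.16) and with no signal filter (adjusted p = 0.11). The weaker ETV4 probe set read 270 and 311 in monolayers and 193 and 66.1 in MCS, below the filter. The other PEA3 factors, named after their values were seen, were called higher. ETV5 had 1140 and 1183 in monolayers and 2123 and 1679 in MCS, a difference of 0.69 ± 0.18 (adjusted p = 0.0101). ETV1 differed by 1.30 ± 0.28 (adjusted p = 0.00311). The log2 ratio of ETV5 to ETV4 within an array was 1.22 and 1.43 in monolayers and 2.82 and 3.18 in MCS, so these relatives moved apart by 1.68 whatever factor scales each array.

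**Figure D2:**
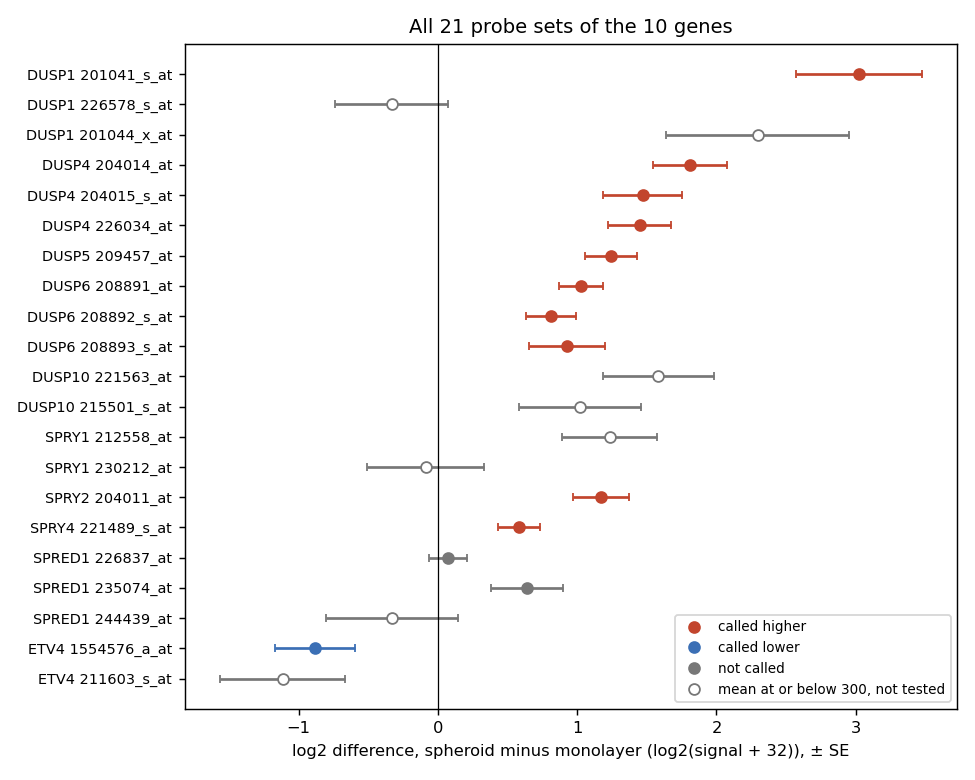
Difference of each of the 21 probe sets of the 10 genes, in MCS minus monolayers on the log2(signal + 32) scale, with bars of ± SE from a fit of all probe sets with no signal filter (n = 2 arrays per group). Filled points had a mean above 300, and their colour gives the call at that filter: 10 higher, 1 lower and 2 not called. Open points are the 8 probe sets at or below 300. The probe sets of DUSP4 and of DUSP6 lie together, and those of DUSP1, SPRY1 and SPRED1 do not.

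Of the 21 probe sets 13 were above the filter, and 10 of these were called higher, 1 lower and 2 not called, where 16.8% of the 14162 probe sets tested were called higher. The brighter ETV4 probe set and the second SPRED1 probe set passed only through the group in which they were brighter. Among the 8 below the filter, both spheroid arrays were above both monolayer arrays in 4, below in 1, and overlapped with them in 3. The share over all probe sets below the filter was not counted, so these numbers are description only. Probe sets of 1 gene share its transcripts and are not separate measurements of the response. Spheroid 1 was brighter than spheroid 2 in 6 of the 8 genes tested and dimmer in DUSP4 and SPRED1. The share of all genes tested that were brighter on spheroid 1 was not counted, so this order is description only. The Bacillus controls were also brighter on spheroid 1. The part of that control difference in the results was not tested.

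Array scaling sets how many of these genes count as higher. With each array scaled on the Bacillus controls instead of its trimmed mean, the median difference of all genes tested fell to -0.87, and 183 of them were called higher and 3996 lower. DUSP1 (2.18, adjusted p = 9.03e-06) and DUSP4 (0.96, adjusted p = 0.0423) were still called higher and ETV4 lower (-1.67, adjusted p = 6.68e-04). DUSP5 (0.39), DUSP6 (0.17), SPRY2 (0.36) and SPRED1 (-0.77) were not called, and SPRY4 changed sign (-0.25, not called). The median of the 8 genes was then 0.26. This scaling multiplies a whole array and so shifts all genes about alike. DUSP10 (0.91, adjusted p = 0.11) and SPRY1 (0.51, adjusted p = 0.354), tested at a mean above 100, also lost their calls under it. All statements of higher and lower above are relative to the trimmed mean of an array.

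**Figure D3:**
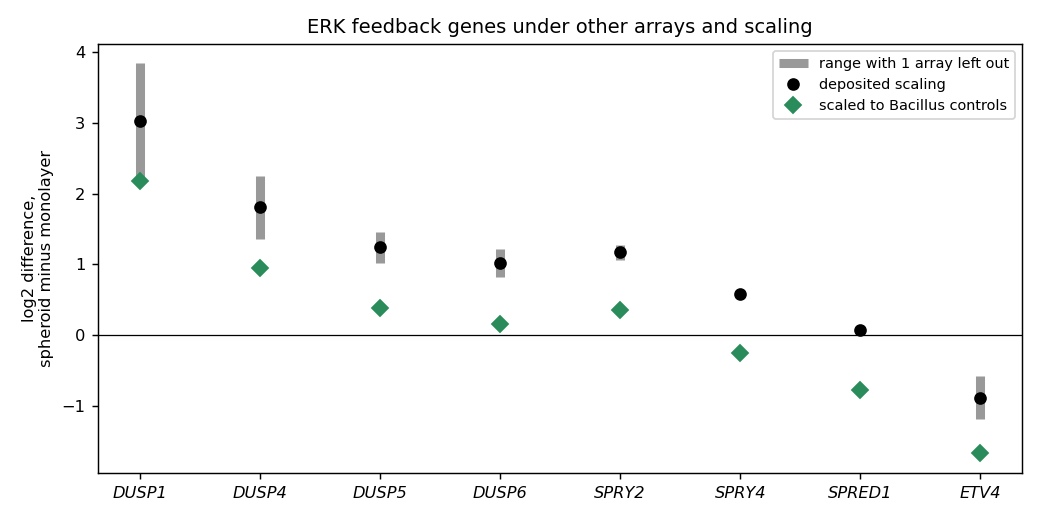
Log2 difference of the 8 genes tested, MCS minus monolayers, under the reported processing (black points), with each 1 of the 4 arrays left out (grey bars from the lowest to the highest value, hidden behind the points of SPRY4 and SPRED1), and with scaling on the Bacillus controls (green diamonds). Leaving out an array moves DUSP1 between 2.21 and 3.84 and SPRY4 only between 0.55 and 0.61. Control scaling lowers every gene, and takes SPRY4 and SPRED1 below 0.

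The enzymes that these brakes act on form the RAS-RAF-MEK-ERK cascade. Of its 22 genes listed 6 were not analysed here and 14 passed the filter. Of these 2 were called higher (14.3%, beside 19.0% of all genes), 1 lower (7.14%, beside 20.6%) and 11 not (78.6%, beside 60.4%). The median of the 14 cascade genes was 0.06. With control scaling 0 were higher and 5 lower, with a median of -0.79. SOS2, an exchange factor that loads RAS with GTP, had a difference of 1.21 ± 0.27 (adjusted p = 0.00357), lost without spheroid 2 (0.86, adjusted p = 0.0506). RASA2, which speeds the hydrolysis of that GTP, was at 0.57 ± 0.21 (adjusted p = 0.0425), and lost its call without monolayer 1 (0.43) and without spheroid 2 (0.30). The RAS protein gene HRAS was lower, by -0.81 ± 0.20 (adjusted p = 0.00734), lost without spheroid 2 (-0.57, adjusted p = 0.0585). The kinases themselves, named after their values were seen, were not called: the MEK genes MAP2K1 and MAP2K2 differed by 0.19 ± 0.16 (adjusted p = 0.365) and 0.04 ± 0.26 (adjusted p = 0.924), and the ERK gene MAPK3 by 0.22 ± 0.23 (adjusted p = 0.469).

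Other genes that ERK is known to induce were mostly called higher. Of 20 listed 17 were tested, and 11 were called higher (64.7%, beside 19.0% of all genes). A further 1 was called lower (5.88%, beside 20.6%) and 5 were not called. The median was 1.06, beside -0.03 for all genes tested. This list too was chosen with earlier results of these data known, so its shares and median are description only. With control scaling 4 were higher and 4 lower, with a median of 0.20, where all 8721 genes gave 183 higher and 3996 lower. FOS, which pairs with JUN proteins to form AP-1, read 240 and 223 in monolayers and 12140 and 5863 in MCS, a difference of 5.01 ± 0.27 (adjusted p = 1.12e-07). Its monolayer mean of 231 lies under the filter, so FOS was tested only through the spheroid arrays, and with no filter its adjusted p was 1.56e-04. EGR1, a zinc finger immediate early factor, read 3320 and 3206 in monolayers and 31647 and 42481 in MCS, a difference of 3.48 ± 0.14 (adjusted p = 1.15e-08). FOS, like DUSP1, was brighter on spheroid 1, whereas EGR1 was brighter on spheroid 2, so these early genes did not share the order of the spheroid cultures. KLF6 (1.96 ± 0.17, adjusted p = 3.92e-06), a zinc finger factor, and MAFF (1.87 ± 0.20, adjusted p = 2.5e-05), a small MAF protein, were also higher. CCND1, which encodes cyclin D1 and links ERK to the cell cycle, was lower, at 6028 and 6067 in monolayers and 3777 and 3886 in MCS (-0.65 ± 0.13, adjusted p = 0.00223). SPRED2, the close relative of SPRED1 and named after its value was seen, was not called (-0.10 ± 0.16, adjusted p = 0.663).

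Of 15 other dual-specificity phosphatases listed 9 were tested, with 3 called higher (33.3%, beside 19.0% of all genes), 2 lower (22.2%, beside 20.6%) and 4 not, and a median of 0.10 (1 higher, 3 lower and -0.75 with control scaling). DUSP2, an inducible nuclear phosphatase of ERK and p38, rose from 486 and 476 in monolayers to 2469 and 1773 in MCS, by 2.05 ± 0.21 (adjusted p = 1.82e-05). DUSP3 was higher by 0.97 ± 0.23 (adjusted p = 0.00575), lost without spheroid 2 (0.74, adjusted p = 0.063), and DUSP28 by 0.63 ± 0.23 (adjusted p = 0.0459). DUSP14 was lower by -0.71 ± 0.18 (adjusted p = 0.00825), lost without monolayer 1 (-0.55, adjusted p = 0.0952), and DUSP12 by -0.56 ± 0.17 (adjusted p = 0.0192). The DUSP28 call was lost without monolayer 2 (0.47), spheroid 1 (0.52) or spheroid 2 (0.75), and the DUSP12 call without monolayer 1 (-0.53), monolayer 2 (-0.58) or spheroid 1 (-0.49). DUSP7, a cytoplasmic ERK phosphatase like DUSP6 and named after its value was seen, had signals of 936 and 915 in monolayers and 535 and 705 in MCS. It lay in the opposite direction to DUSP6 and was not called (-0.57 ± 0.21, adjusted p = 0.0502).

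DUSP1 and DUSP10 also oppose the kinases of the JNK and p38 cascades. Of 15 such genes listed 3 were not analysed here and 10 passed the filter. Of these 1 was higher (10%, beside 19.0% of all genes), 2 lower (20%, beside 20.6%) and 7 not called (70%, beside 60.4%). Their median was -0.21. With control scaling 0 were higher and 7 lower, with a median of -1.03. MAP3K5, a stress-activated kinase at the head of both cascades, was higher by 1.17 ± 0.17 (adjusted p = 2.24e-04). MAPKAPK3, a kinase downstream of p38, was lower by -0.85 ± 0.20 (adjusted p = 0.00492), lost without monolayer 1 (-0.58, adjusted p = 0.0722). MAP2K4, which activates JNK, was lower by -0.50 ± 0.18 (adjusted p = 0.0429), lost without monolayer 1 (-0.51), monolayer 2 (-0.48) or spheroid 1 (-0.33).

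Of 15 kinases and transcription factors listed as acted on by ERK 14 were tested. Of these 5 were higher (35.7%, beside 19.0% of all genes) and 1 lower (7.14%, beside 20.6%). The other 8 were not called (57.1%, beside 60.4%), and the median was 0.40. With control scaling 2 were higher and 2 lower, with a median of -0.41. The epithelial ETS factor ELF3 read 736 and 470 in monolayers and 4062 and 4156 in MCS, a difference of 2.74 ± 0.21 (adjusted p = 1.76e-06). The ELF3 difference was 2.05 with its probe sets averaged and 2.09 without _x_at and _s_at probe sets. MKNK2, a kinase that phosphorylates the translation factor eIF4E, was higher by 2.09 ± 0.14 (adjusted p = 5.62e-07). The ETS factors ETS2 and ELK3 were higher by 1.09 ± 0.22 (adjusted p = 0.00226) and 0.89 ± 0.13 (adjusted p = 2.95e-04), so ETV4 differed in direction from these members of its family. RPS6KA4, a nuclear kinase that ERK and p38 activate, was lower by -0.66 ± 0.23 (adjusted p = 0.0364), and lost its call without any 1 array (-0.63 without monolayer 1, -0.69 without monolayer 2, -0.65 without spheroid 1 and -0.67 without spheroid 2).

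**Figure D4:**
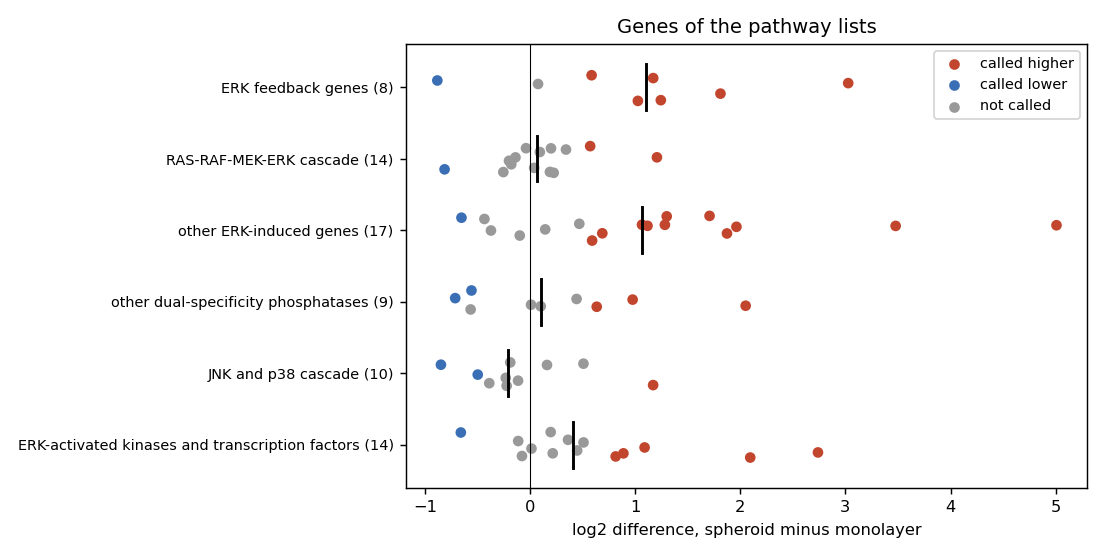
Log2 difference, MCS minus monolayers, of each gene tested in the 10-gene set and in the 5 pathway lists. Each point is 1 gene, coloured by its call, and each bar is the list's median. The medians are 1.10 for feedback genes, 1.06 for other ERK-induced genes and 0.40 for kinases and transcription factors listed as acted on by ERK. They lie between -0.21 and 0.10 for the remaining lists. The median of all genes tested is -0.03.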

How the data were processed

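RNA from 4 untreated HCT116 cultures (2 monolayer, 2 MCS) was hybridized to Affymetrix arrays, 1 array per culture. The deposited values are linear probe set intensity values that the authors computed with MAS5 and scaled to a common trimmed mean (500.1 on each array with 2% trimmed at each end); no software version is stated for it in the sources used here. Arrays carry no read depth, and their number limits the precision.

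Control probe sets (62), probe sets with several gene symbols (1801) and those not listed in the annotation (11721) were left out. Names came from the platform annotation, and 0 symbols changed on matching to RefSeq. Values were analysed as log2(intensity + 32), with 1 probe set per gene (the highest mean) and a filter of 300 on the mean, by limma 3.58.1 in R 4.3.3 (lmFit, eBayes with an intensity trend), which was tested on simulated data. The residual degrees of freedom were 2 and the prior degrees of freedom 10.5. Ratios within an array used signals without the added 32. Within each pathway list the text names up to 4 genes called higher and up to 4 called lower, by size, and marks others as named after their values were seen. The genes and lists were chosen with earlier results of these data known. Alternatives were other constants, filters, normalizations and probe set rules, a replicate block, and leaving out each array.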

Additional observations from a re-analysis of the deposited data

How the results depend on the processing

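With 2 arrays a group, RNA amounts per cell were not measured, and MAS5 signals of weak probe sets are imprecise, so DUSP10 and SPRY1 stand on low signals. Scaling on the Bacillus controls changed most results. Of the 8 feedback genes 2 were then called higher with a median of 0.26, and 2 of their probe sets. Under it the counts called higher were 0 for the RAS-RAF-MEK-ERK cascade, 4 for other ERK-induced genes and 1 for other dual-specificity phosphatases. They were 0 for JNK and p38, and 2 for kinases and transcription factors listed as acted on by ERK. The counts called lower were 5 for the cascade, 4 for other ERK-induced genes, 7 for JNK and p38 and 2 for kinases and factors. SPRY4 (-0.25), RASA2 (-0.27) and DUSP28 (-0.18) changed sign. All genes gave 183 higher and 3996 lower, against 1656 and 1799 as reported. With no signal filter, 0 feedback genes and 0 of their probe sets were called lower, and the cascade had 1 higher, JNK and p38 1 lower, and kinases and factors 0 lower. With a mean above 100, with no intensity trend and without _x_at and _s_at probe sets, the cascade had 1 higher and JNK and p38 1 lower in each case. The last of these left 4 feedback genes called higher (DUSP1 and SPRY4 have no other probe set above the filter) and 1 other phosphatase lower, and no trend gave 3 other phosphatases lower. Averaging the probe sets of a gene gave 3 of the cascade and 3 other phosphatases lower and JNK and p38 1 lower. It ended the call of DUSP3 (0.36, adjusted p = 0.221). At a mean above 100, 8 feedback genes were called higher, the further ones being DUSP10 and SPRY1. Their tests at that filter with other settings, and the ratios within an array, were chosen after seeing the data. Quantile normalization gave 6 feedback genes higher and 1 lower, as reported, but 2 other phosphatases higher and 3 lower, and ended the call of DUSP28 (0.50, adjusted p = 0.0959).

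The replicate block gave 6 feedback genes higher and 1 lower, as without it. It gave 2 of the cascade, 2 other ERK-induced genes, 3 other phosphatases and 3 of JNK and p38 lower. The labels number the cultures but do not pair them, and same-numbered arrays deviated together (r = 0.32 across genes).

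With each 1 array left out, 5 feedback genes were called higher each time, SPRY4 being the one lost, and 0 to 1 lower. Their probe sets gave 8 to 9 higher and 0 to 1 lower. The cascade gave 0 to 2 higher and 0 to 2 lower, other ERK-induced genes 1 to 2 lower, other phosphatases 1 to 3 higher and 0 to 3 lower, JNK and p38 0 to 2 lower, and kinases and factors 0 lower. The cause of these changes was not tested.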
